A study of Mus musculus with 18 samples.

Results

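The 4 libraries of retinal pigment epithelium (RPE) from old mice that had received the OSK vector were compared with the 7 libraries of RPE from young mice. These 11 of the 18 libraries of the series were taken by the titles of the samples, and every gene with enough counts was tested, so that the comparison shows how far OSK-treated old RPE lay from young RPE. Young libraries come from young mice with no vector named in their labels. For the Old OSK libraries, the labels name AAV2-tTA and TRE-OSK as what the old mice received. AAV2 is an adeno-associated virus used to carry genes into cells, tTA is a transactivator that can be switched off with tetracyclines, and TRE is the promoter on which tTA acts. OSK stands for Oct4 (gene symbol Pou5f1), Sox2 and Klf4. The series also holds 4 libraries of untreated old mice (Old) and 3 of old mice given AAV2-tTA alone (Old control). Strain, ages, vector dose, route, time after injection and the promoter that drives tTA are not given in the sources used here. Old OSK and Young differ at once in age, in the vector and in the 3 factors, and these cannot be told apart in their comparison. The labels do not say whether each library came from a separate mouse, so p-values measure the spread between these libraries only.

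The RPE is the single layer of pigmented cells between the photoreceptors and the choroid. It returns retinal to its light-sensitive form in the visual cycle, takes up shed photoreceptor outer segments, carries glucose and ions, makes melanin and forms the outer blood-retina barrier. With age the layer loses pigment and its surroundings gain immune cells. Oct4, Sox2 and Klf4 are transcription factors of embryonic stem cells, and their temporary expression is studied as a way to return old cells toward a younger state without loss of their identity.

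Library totals lay between 19629563 and 31914550 counts in Young and between 18104828 and 28489232 in Old OSK, and mitochondrially encoded genes held 4.92% to 7.35% and 4.58% to 5.63% of all counts. Expression is given as CPM, counts scaled to a common library size after TMM scaling. Young replicates 5, 6 and 7 and Old OSK replicate 4 carry a letter M in their library names, and all 6 libraries of the series with this letter had 4040 to 5493 counts on 4 Y-linked genes, where no other library exceeded 93.

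All 4 Old OSK libraries held less RPE marker RNA than the Young libraries, and 3 of them held more surface epithelium marker RNA. The summed level of 12 RPE markers was 42870 to 68490 CPM in Young, with a median of 55490, and 31200, 16630, 24140 and 27890 CPM in Old OSK replicates 1 to 4. All 4 Old OSK libraries were below the lowest Young library. Rpe65, the isomerase of the visual cycle, had 3800 to 7340 CPM in Young and at least 1190 CPM in Old OSK, so the labelled tissue was present in each library. A list of 20 genes of the corneal and conjunctival surface epithelium, chosen after the data had been seen, summed to 250.1 to 7483 CPM in Young (median 1600) and to 36890, 25440, 22980 and 4566 CPM in Old OSK. Old OSK replicates 1 to 3 were thus above every Young library, while replicate 4 was inside the Young range. Among the 20 were Krt5, a keratin of basal cells, with 1250 to 8580 CPM in Old OSK against 52.3 to 1910 in Young, Krt12, the keratin of the cornea, with 74.5 to 3090 against 0.984 to 85.3, and Aldh3a1, a corneal crystallin, with 366 to 4560 against 12.9 to 398.

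Rod photoreceptor RNA moved in another order. The 13 rod markers summed to 460.3 to 3540 CPM in Young (median 2149) and to 3287, 8685, 3337 and 17580 CPM in Old OSK, so that replicates 2 and 4 were above the Young range and replicates 1 and 3 inside it. Marker sums of endothelium (81.21 to 323.6 CPM against 86.83 to 304 in Young) and red blood cells (57.47 to 287 against 60.35 to 263.7) overlapped. So did the sum of the 16 immune cell markers (568.9 to 745.1 against 496.8 to 713.3). Csf1r alone had 401 to 620 CPM of it in Young and 136 to 227 CPM in Old OSK. Of the 15 tested, 8 were called higher and 1 lower at an edgeR adjusted p under 0.05 (25.1% and 21.4% of all genes). Their median log2 fold change was 1.427. Markers of choroidal and scleral stroma were lower in sum, at 296.7 to 392.1 CPM against 439.5 to 582.2, with 5 of 10 called lower and none higher. The sum for Müller glia and astrocytes was lower too, at 15370 to 19720 against 22380 to 30320. It includes Rlbp1, also an RPE marker, at 3600 to 6940 CPM in Young. Of these 10 markers, 3 were called lower and none higher. Aqp4 (log2 fold change 0.28), Kcnj10 (0.6), Slc1a3 (-0.25) and Abca8a (-0.09) were not called. Of 13 inner retinal neuron markers tested, 9 were called higher and 1 lower, and of 8 cone markers 4 higher and none lower. Their sums overlapped, at 780.3 to 1200 CPM in Old OSK against 994.3 to 1452 in Young for inner retinal neurons. For cones they were 67.9 to 316 against 62.17 to 107.1. Trpm1 and Slc6a9 alone had 452 to 982 and 332 to 482 CPM of the inner retinal sum in Young. Markers of ciliary body, iris and lens summed to 126.4 to 169 CPM in Old OSK and 32.82 to 2610 CPM in Young (median 143.6). Young replicates 1, 2 and 3 had 2610, 513.3 and 1043 CPM of them, above every Old OSK library. Of 9 tested, 1 was called higher and none lower, with a median log2 fold change of -1.898. Outside the comparison, Old replicate 4 had 26590 CPM of surface epithelium markers and Old control replicate 2 had 21020 CPM of rod markers. In bulk RNA, fewer cells of a type and less RNA per cell cannot be told apart.

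**Figure D1:**
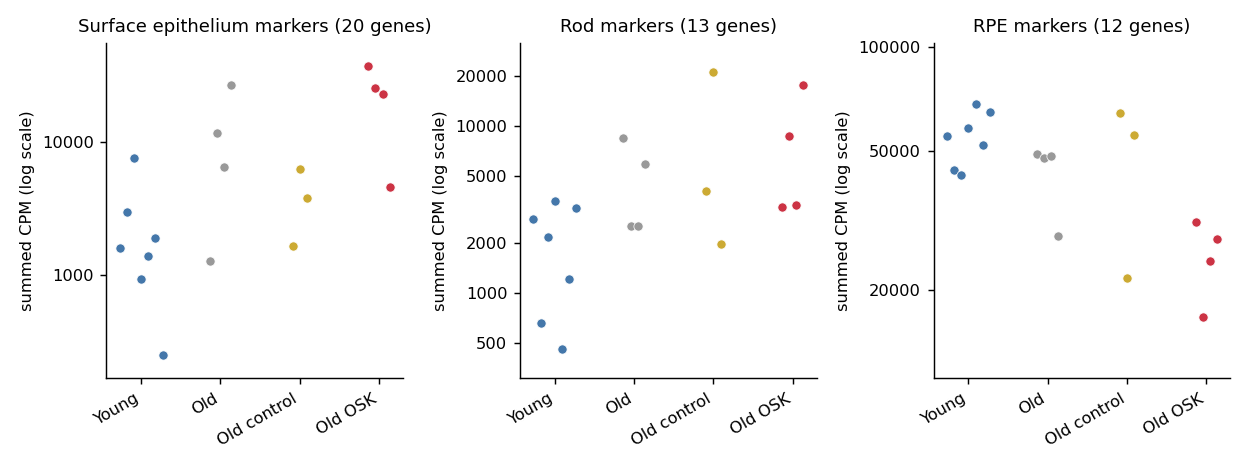
Summed CPM of the marker genes of surface epithelium, rods and RPE (log scale) in each of the 18 libraries, 1 point a library, by group and in the order of the replicate numbers. Surface epithelium markers reach 36890 CPM in Old OSK replicate 1 and RPE markers are below every Young library in all 4 Old OSK libraries.

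Lists and most of the genes below are therefore also given from fits that hold these contents as covariates. The surface epithelium score and the rod score are the mean log2 CPM of the 20 and the 13 markers in a library. The surface score was 2.185 to 6.822 in Young and 9.65, 9.105, 8.771 and 6.236 in Old OSK, so the groups overlap in it by 1 Old OSK library only, and a fit that holds it has less information on the groups. The median standard error of a log2 fold change was 0.185 with group means alone, 0.241 with the surface score and 0.26 with both scores. Of the 120 genes described, 45 lost their call with the surface score and 69 with both, so a gene printed with 1 value only may not keep it there. The 120 include Krt5, Krt12, Krt14, Aldh3a1 and Lypd2, which are part of the surface score, so their values with it are not independent of it. The part of surface epithelium and rods in any single result was not tested beyond these fits.

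Across the genome, OSK-treated old RPE lay far from young RPE. Of 15944 genes tested with edgeR's quasi-likelihood test, 7401 (46.4%) had a Benjamini-Hochberg adjusted p under 0.05, the threshold for a call. Of these, 3996 were higher in Old OSK (25.1% of the genes tested) and 3405 lower (21.4%). The counts of called genes in each list below are to be read beside these shares. Higher genes moved further, since 2614 of them but only 554 of the lower genes changed by at least 1 on the log2 scale. The median log2 fold change over all genes was 0.06 and the median of its size was 0.41. The 95% interval of the fold change lay within 1 log2 unit of no change for 8879 genes (55.7%). In 2007 genes (12.6%) all 4 Old OSK libraries were above all 7 Young libraries, and in 2494 genes (15.6%) all 4 were below. The scores of the Old OSK libraries were not alike. Replicate 4 had a surface score inside the Young range and a rod score of 9.318, above the highest Young score of 7.035, and replicate 1 had a rod score of 6.957 and the highest surface score.

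**Figure D2:**
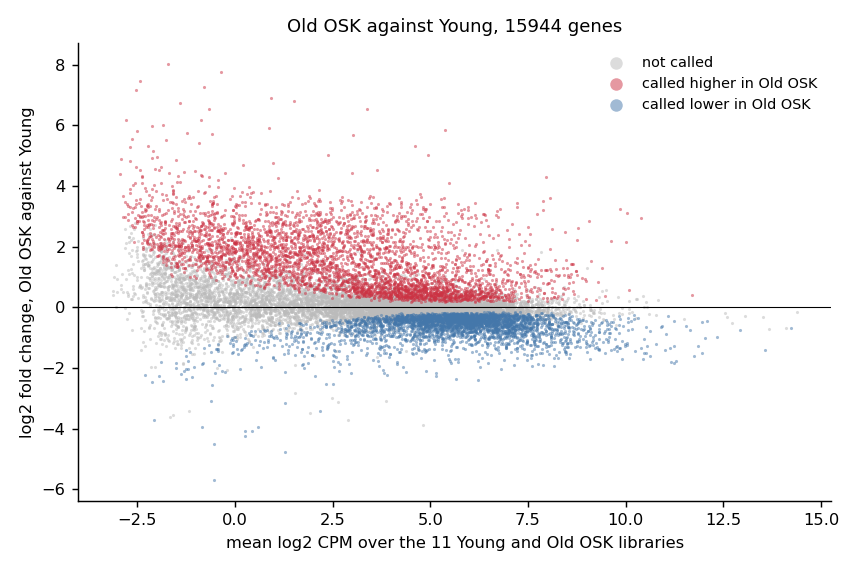
Log2 fold change of Old OSK against Young for each of the 15944 genes, against the mean log2 CPM over the 11 libraries, with called genes in red (3996 higher) and blue (3405 lower) and the rest in grey. The widest changes are upward and at low to middle levels.

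With the surface epithelium score held, 1040 genes were called (6.52%), 531 higher (3.33%) and 509 lower (3.19%), and 953 of the 7401 first calls (12.9%) remained. The fold change kept its sign in 6685 of the 7401 (90.3%). With the rod score held, 4458 genes were called (28%) and 4261 of the first calls remained. With both scores held, 243 genes were called (1.52%), 161 higher (1.01%) and 82 lower (0.514%), and 215 of the first calls remained. The median size of the log2 fold change went from 0.41 to 0.303 with the surface score and to 0.276 with both.

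With group means alone, the old groups without OSK were nearer to Young by the same counts. These comparisons share the Young libraries with the first. Old control against Young gave 1056 calls (6.62%, with 4.58% higher and 2.04% lower) and Old against Young gave 1524 (9.56%, with 5.4% higher and 4.16% lower). With the surface score held, Old control against Young gave 1223 calls and Old against Young 397, beside 1040 for Old OSK against Young. With both scores held these counts were 299, 193 and 243. In these fits Old control was not nearer to Young than Old OSK by the number of calls. Old OSK against Old control, which shares the Old OSK libraries, gave 116 calls (0.728%), of which 65 were higher and 51 lower, at a median standard error of 0.2245. That last count rested on single libraries. It was 13 without Old control replicate 1, 2881 without Old control replicate 2, the library with the most rod RNA, 1738 without Old OSK replicate 4, and 36 to 68 without any 1 of the other 4. With the replicate number as a block in this comparison, the count was 461. The other two counts also depended on single libraries, with 241 calls for Old control against Young without Old control replicate 2 and 393 calls for Old against Young without Old replicate 4.

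Each library was also placed by 1 value, the root mean square difference in log2 CPM over all tested genes from the mean of the Young libraries (for a Young library, from the other 6). Young libraries lay between 0.4207 and 0.8123, with a median of 0.5623. Old OSK replicates 1 to 4 lay at 1.1446, 1.2433, 1.0688 and 1.0109, all above the highest Young library. The means were 1.117 ± 0.1005 (SD, n = 4) and 0.5944 ± 0.135 (SD, n = 7), and their difference of 0.5225 had a two-sided exact permutation p = 0.00303, the smallest that the 330 splits allow, and 0.00909 after Benjamini-Hochberg adjustment over 3 tests. Without the libraries with M, which leaves 3 Old OSK and 4 Young libraries, the difference was 0.4565 with an adjusted exact p = 0.0857.

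Untreated old libraries lay at 0.6766 to 1.0924 and Old control libraries at 0.6489, 1.1708 and 0.5938, so both groups overlapped Old OSK in 1 library each, Old replicate 4 and Old control replicate 2. Old OSK was further out than Old by 0.2966 (exact permutation p = 0.0857, adjusted 0.129) and than Old control by 0.3124 (exact permutation p = 0.143, adjusted 0.143), differences that do not pass the threshold. Within the numbers 1 to 3 that Old OSK and Old control share, Old OSK was further out in 3 of 3 pairs, by 0.4956, 0.0725 and 0.475 with a mean of 0.3477 (two-sided exact permutation of signs p = 0.25, the smallest that 3 pairs allow). No label states this pairing, and numbers 2 and 3 join an Old OSK library without M to an Old control library with M. Without Old replicate 4 the distance beyond Old was 0.388 with an adjusted exact p = 0.0429. The share of genes over 1 log2 unit from the Young mean was 4.32% to 14.1% in single Young libraries and 23.4%, 28.5%, 22.2% and 20.8% in the Old OSK libraries. It was 10.8% to 22.7% in Old and 9.57% to 25.5% in Old control, highest in Old replicate 4 and Old control replicate 2.

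On the straight line from the Young mean (0) to the Old mean (1), Old OSK libraries stood at 1.3311, 1.5646, 1.3 and 1.161, all beyond the Old mean. Single Old libraries stood at 0.6205 to 1.4465, and Old replicate 4, at 1.4465, was beyond Old OSK replicates 1, 3 and 4. Old control libraries stood at 0.4538, 1.3181 and 0.5234. The difference between these groups of 0.5741 had a two-sided exact permutation p = 0.0857, where the 35 splits allow no p under 0.0286. Within the 3 pairs it was 0.8773, 0.2465 and 0.7766, again of 1 sign (exact permutation p = 0.25). Off this line the Old OSK libraries lay a further 0.6013 to 0.7011 log2 units from it. The line passes through the Young and Old means, and Young libraries (0.3604 to 0.6543) and Old control libraries (0.4754 to 0.7537) overlapped Old OSK in this value.

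**Figure D3:**
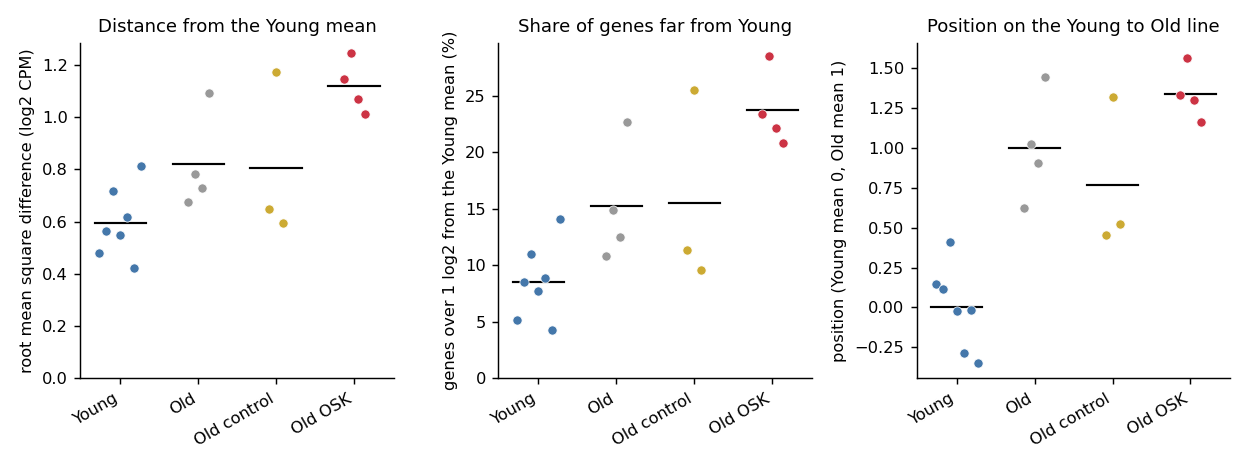
Distance of each library from the Young mean (root mean square log2 CPM difference), share of genes over 1 log2 unit from that mean (%), and position on the line from the Young mean (0) to the Old mean (1), 1 point a library with a bar at the group mean. All 4 Old OSK libraries are above all Young libraries in the 3 panels, and Old replicate 4 and Old control replicate 2 stand among the Old OSK libraries in each panel.

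The 3 vector genes were higher in Old OSK. Pou5f1, which encodes Oct4, had 0 to 3.75 CPM (median 0.128) in Young and 66.3, 97.4, 86.7 and 50.1 CPM in the Old OSK libraries. Sox2 had 2.49 to 5.57 CPM (median 3.79) in Young and 84.5, 115, 103 and 70 CPM in Old OSK. Klf4 had 5.68 to 51 CPM (median 15.2) in Young and 432, 362, 334 and 155 CPM in Old OSK. The groups did not overlap for any of the 3, and replicate 4 was the lowest Old OSK library for each. For Pou5f1 the log2 fold change was 6.88 ± 0.92 (SE, edgeR adjusted p = 6.72e-05), log2 fold change 4.54 ± 0.37 SE, edgeR adjusted p = 9.43e-07 for Sox2 and log2 fold change 4.09 ± 0.62 SE, edgeR adjusted p = 0.000161 for Klf4. With the surface score held, the log2 fold changes were 5.35 (adjusted p = 0.00319), 4.22 (adjusted p = 0.000267) and 1.74 (adjusted p = 0.0076) in the same order. With both scores held they were 5 (adjusted p = 0.0671), 3.39 (adjusted p = 0.00516) and 1.46 (adjusted p = 0.0858), so only Sox2 kept its call. Klf4 is also a gene of surface epithelia. Old replicate 4, which had no vector, had 216 CPM of it, more than the 155 CPM of Old OSK replicate 4. Counts per gene do not separate vector transcripts from those of the mouse genes.

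Gsta4, a glutathione S-transferase that detoxifies the lipid aldehyde 4-hydroxynonenal and is named in the title of the series, had 403 to 679 CPM (median 449) in Young. In Old OSK it had 3500, 2470, 2120 and 746 CPM. All 4 libraries were above the Young range, replicate 4 only just. Its log2 fold change was 2.18 ± 0.36 (SE, edgeR adjusted p = 0.000312), and with the surface score held the log2 fold change was 0.57 (adjusted p = 0.31), no longer a call. Old replicate 4, untreated and rich in surface epithelium RNA, had 2290 CPM, and reads of other Gsta genes with similar sequence may be shared with it.

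Of 15 other genes of the pluripotent state, 8 were higher and none lower (25.1% and 21.4% of all genes), with a median log2 fold change of 1.774. They stayed at low levels. Gdf3, a TGF-beta family ligand of early embryos, had at most 0.0642 CPM in Young and 1.4, 0.707, 0.824 and 0.651 CPM in Old OSK, and Old (0.239 to 1.25 CPM) and Old control (0.238 to 0.594 CPM) had it as well. Fgf4, a growth factor whose gene Oct4 and Sox2 bind in stem cells, was at 0 to 0.285 CPM (median 0) in Young and 0.92, 1.75, 1.34 and 1.24 CPM in Old OSK. Nr0b1 was at 0 in all Young libraries and at 0.242, 1.75, 0.926 and 0.62 CPM in Old OSK, and no fold is given for these 3. Under the surface score 2 members were called, and with both scores 1.

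Several genes of phagocytes were among those that separated the groups most firmly. Among genes whose mean log2 CPM reached 3 and whose groups did not overlap, the lowest p-values on the higher side belonged to Cd68, Tspan17, Ctss, Tmsb10, Lyz2, C1qc, Mpeg1, Cebpd, C1qb and Sox2. Cd68, a lysosomal membrane protein of macrophages, had 7.06 to 10.8 CPM (median 8.05) in Young and 33.1, 45.4, 38 and 36.3 CPM in Old OSK. The lowest Old OSK library was more than 3 times the highest Young library. Its log2 fold change was 2.21 ± 0.14 (SE, edgeR adjusted p = 9.42e-08), and with both scores held the log2 fold change was 1.91 (adjusted p = 0.00145). Old libraries had 18.1 to 31.8 CPM of Cd68 and Old control libraries 21.8 to 24.8 CPM, above every Young library and below every Old OSK library.
Lyz2, lysozyme of macrophages and neutrophils, had 23.5 to 41 CPM (median 29.7) in Young and 321, 268, 317 and 396 CPM in Old OSK, with no overlap (log2 fold change 3.43 ± 0.24 SE, edgeR adjusted p = 2.35e-07). Old libraries had 190 to 467 CPM and Old control libraries 192 to 476 CPM of it, ranges that include all Old OSK values. Tspan17, a tetraspanin, had 11.8 to 15.7 CPM (median 13.3) in Young and 44.3, 52.6, 48.2 and 37.5 CPM in Old OSK (log2 fold change 1.77 ± 0.11 SE, edgeR adjusted p = 9.42e-08), while the Old and Old control libraries stayed between 16.4 and 22.6 CPM.

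Of 22 microglia and macrophage genes, 19 were higher and 1 lower (against 25.1% and 21.4% of all genes), with a median log2 fold change of 2.24 beside 0.06 for all genes. Ctss, a lysosomal protease, had 7.29 to 16.5 CPM (median 9.49) in Young and 107, 137, 113 and 127 CPM in Old OSK (log2 fold change 3.54 ± 0.23 SE, edgeR adjusted p = 1.16e-07). Old libraries had 49 to 106 CPM of Ctss and Old control libraries 69 to 117 CPM. Trem2, a lipid receptor of microglia, changed by 3.19, the adaptor Tyrobp by 3.47 and P2ry12, a purine receptor of resting microglia, by 2.12 on the log2 scale. Mrc1 (0.42) and Cd163 (0.27), receptors of tissue macrophages, were not called, and without Young replicate 2 Mrc1 was (0.778, adjusted p = 0.0116). The lower gene was Csf1r, the receptor for the macrophage growth factor M-CSF, with 401 to 620 CPM (median 475) in Young and 216, 136, 215 and 227 CPM in Old OSK (log2 fold change -1.31 ± 0.26 SE, edgeR adjusted p = 0.00104). Its 4 Old OSK values were below every Young library. Under the surface score 17 of the 22 were higher and none lower, and with both scores 12, with medians of 2.133 and 2.159. In Old against Young 16 were higher and none lower (5.4% and 4.16% of all genes), and Old control against Young called 16 (6.62%). Old OSK against Old control called none of the 22 (0.728% of all genes).

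Complement genes, which tag targets for phagocytosis, moved alike. Of 20 tested, 14 were higher and 1 lower, with a median of 1.714. In Old against Young 6 were higher and none lower (5.4% and 4.16% of all genes), and Old control against Young called 9 (6.62%). C1qc, a chain of the C1q recognition protein, had 4.79 to 7.91 CPM (median 6.2) in Young and 38.2, 75.9, 49.1 and 62.2 CPM in Old OSK (log2 fold change 3.16 ± 0.23 SE, edgeR adjusted p = 2.35e-07). Itgb2, the shared chain of the complement receptors of leukocytes, had 2.76 to 4.25 CPM (median 3.73) in Young and 13.5, 17.3, 14.5 and 22.2 CPM in Old OSK, again without overlap (log2 fold change 2.24 ± 0.18 SE, edgeR adjusted p = 8.49e-07). Old and Old control had 20.4 to 51.6 and 31.9 to 45.7 CPM of C1qc, and 9.23 to 16.1 and 12.1 to 17.1 CPM of Itgb2. C4b changed by 2.37, C3 by 1.03 and the C1 inhibitor Serping1 by 1.8 on the log2 scale. With the surface score held, 9 members were higher and none lower, and with both scores 6.

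Class I antigen presentation genes, through which most cell types show peptides to T cells, were higher as a group. Of 23 tested, 19 were higher and 1 lower, with a median of 1.137. In Old against Young 14 were higher and none lower (5.4% and 4.16% of all genes), and Old control against Young called 4 (6.62%). H2-K1, a class I heavy chain, had 77.9 to 140 CPM (median 109) in Young and 608, 431, 461 and 341 CPM in Old OSK, with the lowest Old OSK library more than 2 times the highest Young library (log2 fold change 2.05 ± 0.19 SE, edgeR adjusted p = 3.45e-06). H2-D1, the other classical heavy chain, had 52.7 to 131 CPM (median 85.1) and 642, 435, 461 and 315 CPM (log2 fold change 2.42 ± 0.25 SE, edgeR adjusted p = 8.24e-06). Old and Old control were above the Young range as well, with 200 to 348 and 153 to 273 CPM of H2-K1. For H2-D1 these groups had 154 to 365 and 146 to 246 CPM. B2m, the light chain of every class I molecule, had 362 to 466 CPM (median 408) in Young and 823, 754, 757 and 663 CPM in Old OSK, without overlap (log2 fold change 0.88 ± 0.11 SE, edgeR adjusted p = 3.53e-05), and 359 to 528 CPM in Old and 387 to 495 CPM in Old control. With the surface score held these 3 had log2 fold changes of 1.46 (adjusted p = 0.00244), 1.39 (adjusted p = 0.00036) and 1.06 (adjusted p = 0.00143), and all 3 were called with both scores as well. Psmb8 (2.84) and Psmb9 (2.59), subunits of the immunoproteasome, and Tap1 (1.81), a peptide transporter, were higher on the log2 scale, while the lower gene was Canx, a general chaperone of the endoplasmic reticulum (log2 fold change -0.49 ± 0.1 SE, edgeR adjusted p = 0.00142), with 2 lower without Young replicate 2 or Old OSK replicate 1. In all, 8 members were higher with the surface score and 5 with both. Reads of class I heavy chain genes may be shared between them.

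Of 26 interferon response genes, 22 were higher and none lower, with a median of 0.976. In Old against Young 17 were higher and none lower (5.4% and 4.16% of all genes), and Old control against Young called 4 (6.62%). Ifit1, an RNA-binding interferon-induced protein, had 6.92 to 21.8 CPM (median 16.9) in Young and 71.3, 66.5, 44.6 and 70.3 CPM in Old OSK (log2 fold change 2.03 ± 0.27 SE, edgeR adjusted p = 6.72e-05). Irf7, the factor that amplifies type I interferon, had 3.66 to 10 CPM (median 6.36) and 52.3, 29.3, 27.9 and 27 CPM (log2 fold change 2.39 ± 0.32 SE, edgeR adjusted p = 7.11e-05). Both were apart from Young in all 4 libraries. Zbp1 (3.42), Oas1a (3.24) and Isg15 (2.69) had larger log2 fold changes and more spread, and Stat2, Ifit2, Gbp7 and Trim25 were not called. Without Old OSK replicate 4 Trim25 had a log2 fold change of 0.431 (adjusted p = 0.0284). The surface score left 6 members higher and both scores 3.

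Class I and interferon genes share short promoter elements that interferon-activated factors are known to bind, and those of B2m, Ifit1, H2-K1 and H2-D1 are shown because these genes moved together and hold a match. The window of Irf7, described above as well, holds neither element. The elements searched were GAAANNGAAA and the shorter GAANNGAAA, on both strands, in RefSeq windows of 250 bases before to 50 after each start (GRCm38.p6). The first was in 3.44% of all 32851 windows and the second in 7.52%. Among list members with a window, the first was in 5 of 20 class I genes and 13 of 21 interferon genes, and the second in 7 of 20 and 8 of 21. The 200 bases before 1 annotated start of each gene are printed 5′ to 3′ on the gene's strand, with the matches in capitals, GAAANNGAAA for B2m (chr2:122147487-122147686, plus strand) and Ifit1 (chr19:34640689-34640888, plus strand) and GAANNGAAA for H2-K1 (chr17:34000348-34000547, minus strand) and H2-D1 (chr17:35262894-35263093, plus strand). Matches begin 139, 104, 90 and 150 bases before the start in this order, and Ifit1 has 2. A match describes the letters only.
B2m: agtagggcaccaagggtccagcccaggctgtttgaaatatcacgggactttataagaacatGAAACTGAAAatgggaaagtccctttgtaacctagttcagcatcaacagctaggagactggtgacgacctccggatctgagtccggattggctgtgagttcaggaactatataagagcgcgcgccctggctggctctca
Ifit1: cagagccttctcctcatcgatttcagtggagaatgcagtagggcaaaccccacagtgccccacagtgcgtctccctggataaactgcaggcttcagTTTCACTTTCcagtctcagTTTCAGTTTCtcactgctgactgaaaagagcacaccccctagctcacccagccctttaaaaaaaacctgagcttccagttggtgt
H2-K1: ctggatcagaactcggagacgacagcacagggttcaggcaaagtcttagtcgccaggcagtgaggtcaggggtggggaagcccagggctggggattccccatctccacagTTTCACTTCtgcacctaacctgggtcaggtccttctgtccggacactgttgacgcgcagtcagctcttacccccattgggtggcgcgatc
H2-D1: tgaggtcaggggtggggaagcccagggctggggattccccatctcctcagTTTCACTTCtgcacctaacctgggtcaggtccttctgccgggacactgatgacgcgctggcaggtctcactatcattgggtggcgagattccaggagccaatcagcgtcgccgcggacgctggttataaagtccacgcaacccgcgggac

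**Figure D4:**
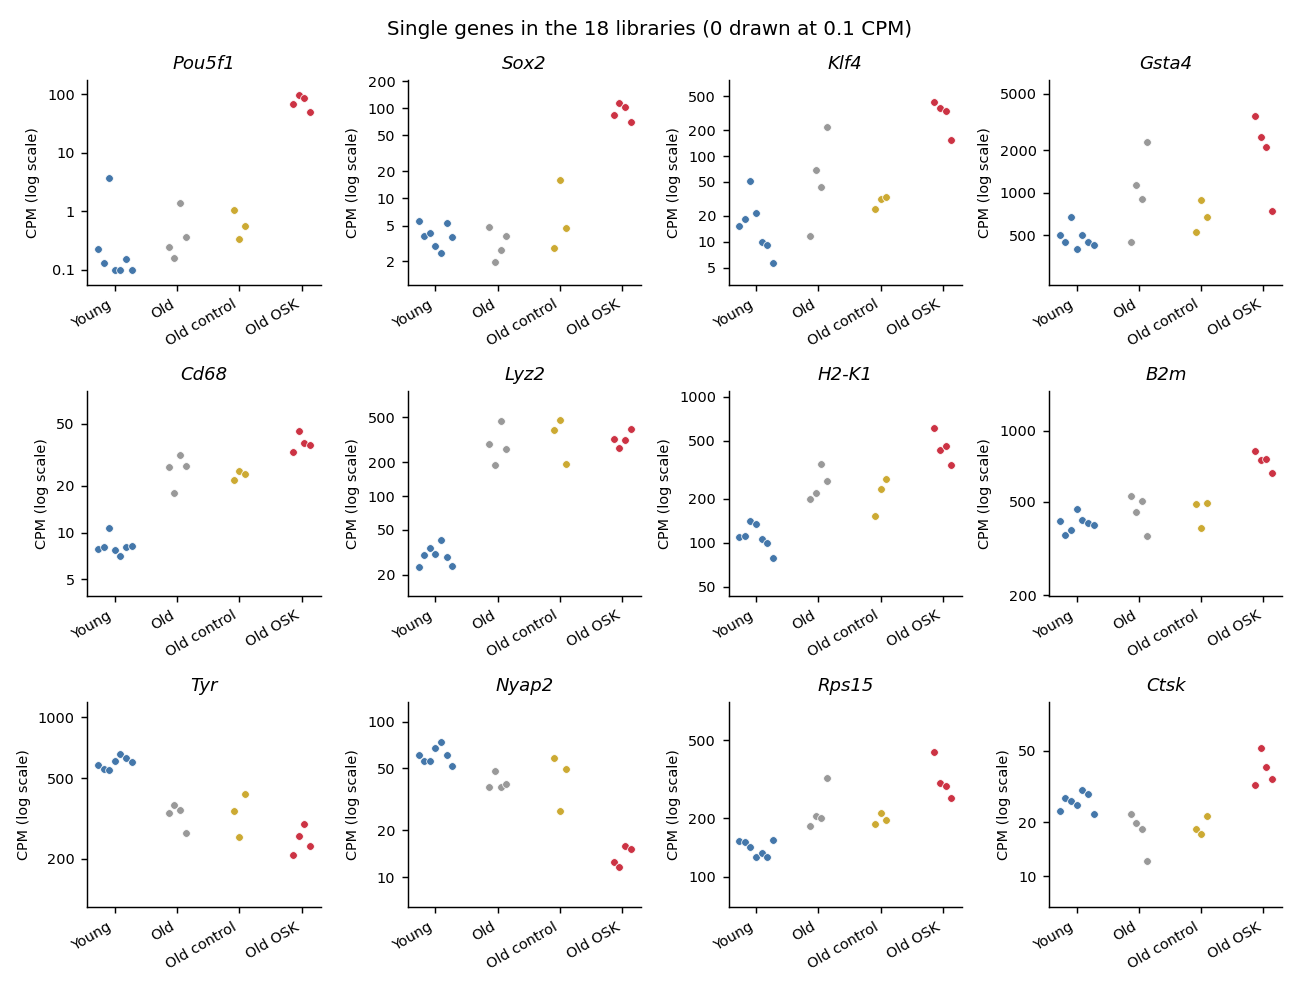
CPM of 12 genes (log scale, 0 drawn at 0.1 CPM) in the 18 libraries, 1 point a library, by group. Pou5f1, Sox2, B2m, Tyr and Nyap2 show all 4 Old OSK libraries apart from all 7 Young libraries, and Gsta4 shows Old replicate 4 at 2290 CPM, among the Old OSK libraries.

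The genes that define RPE function were mostly lower. In the visual cycle, 12 of 15 genes were lower and 1 higher, with a median log2 fold change of -1.261. Rpe65, the isomerase, changed by -1.62, Rdh10, a retinol dehydrogenase, by -1.81, and Stra6, the receptor for retinol carriage, by -1.45. Rrh, the opsin-like protein peropsin of RPE microvilli, had 361 to 550 CPM (median 448) in Young and 189, 106, 163 and 152 CPM in Old OSK, with every Old OSK library below the Young range (log2 fold change -1.57 ± 0.27 SE, edgeR adjusted p = 0.00035). Rdh11, another retinol dehydrogenase, had 180 to 288 CPM (median 228) in Young and 112, 75.4, 84.4 and 108 CPM in Old OSK (log2 fold change -1.24 ± 0.2 SE, edgeR adjusted p = 0.000292). The higher gene, Rbp3, is the retinoid-binding protein that photoreceptors secrete, and it followed the rod markers, with 192, 451, 205 and 1110 CPM in Old OSK and a log2 fold change of 1.8 that became -0.42 (adjusted p = 0.0714) with the rod score held. Its call was kept in 3 of the 11 fits that leave out 1 library, and Old OSK replicate 4 carried it (0.962, adjusted p = 0.308 without that library), so this list then had no higher member. No member was called with the surface score held, where the median was -0.65, or with both scores, where it was -0.161.

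Melanin genes gave 10 lower and 1 higher of 14, with a median of -0.844. Tyr, tyrosinase, the first enzyme of melanin synthesis, had 551 to 660 CPM (median 599) in Young and 208, 258, 295 and 231 CPM in Old OSK. The groups were far apart (log2 fold change -1.27 ± 0.13 SE, edgeR adjusted p = 8.78e-06). The untreated Old libraries had 269 to 367 CPM and Old control 257 to 416 CPM, so Tyr was under the Young range in every old library. It remained a call with the surface score (-1.09 (adjusted p = 0.0036)) and with both scores (-0.83 (adjusted p = 0.0236)). Slc24a5, an ion exchanger of melanosomes, had 209 to 251 CPM (median 241) and 104, 98.5, 106 and 125 CPM (log2 fold change -1.11 ± 0.16 SE, edgeR adjusted p = 0.00011). Mreg, melanoregulin, was the higher member, with 4.5 to 8.2 CPM (median 4.72) in Young and 41.2, 27.8, 20.5 and 14.9 CPM in Old OSK, and had a log2 fold change of 0.84 (adjusted p = 0.231) with the surface score. Melanocyte markers summed to 315.8 to 426.1 CPM in Old OSK and 456.6 to 547.9 CPM in Young.

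Of 12 transcription factors of RPE identity, 6 were lower and 2 higher (21.4% and 25.1% of all genes). Otx2, a factor of RPE and photoreceptors, had 579 to 931 CPM (median 743) in Young and 342, 272, 346 and 425 CPM in Old OSK (log2 fold change -1.13 ± 0.22 SE, edgeR adjusted p = 0.000898). Mitf, the regulator of pigment cells, had 102 to 127 CPM (median 114) and 66.8, 64.2, 77.4 and 68 CPM, without overlap (log2 fold change -0.74 ± 0.14 SE, edgeR adjusted p = 0.000897). Crx, a photoreceptor factor, was higher (log2 fold change 2 ± 0.74 SE, edgeR adjusted p = 0.0354), and with the rod score held its log2 fold change was -0.21 (adjusted p = 0.167). Its call was lost without any 1 of Young replicates 2, 3, 5 and 6 and Old OSK replicates 2 and 4 (1.29, adjusted p = 0.192 without Old OSK replicate 4), which left 1 higher member. Vax2 was higher as well (log2 fold change 1.43 ± 0.32 SE, edgeR adjusted p = 0.00222). Its Old OSK libraries had 7.12, 5.15, 6.02 and 19.1 CPM, and without replicate 4 its log2 fold change was 0.783 (adjusted p = 0.0213). The call was lost with the rod score (1.1 (adjusted p = 0.061)) and without the libraries with M (0.775, adjusted p = 0.0534). The surface score left 1 member called and both scores none.

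Among 16 channels, transporters and secreted factors of RPE, 9 were lower and 3 higher, with a median of -0.824. Slc2a1, the glucose transporter GLUT1, had 2240 to 2920 CPM (median 2670) in Young and 1560, 1070, 1350 and 1690 CPM in Old OSK (log2 fold change -0.89 ± 0.18 SE, edgeR adjusted p = 0.00114), and Slc4a2, a chloride and bicarbonate exchanger, had 754 to 1110 CPM (median 806) and 371, 257, 361 and 377 CPM (log2 fold change -1.38 ± 0.27 SE, edgeR adjusted p = 0.000878). Both were below the Young range in all 4 libraries. Aqp1, a water channel, went the other way, with 13.4 to 39.7 CPM (median 29) in Young and 70.4, 164, 168 and 132 CPM in Old OSK (log2 fold change 2.26 ± 0.32 SE, edgeR adjusted p = 0.000101), and was the 1 member called with the surface score (1.68 (adjusted p = 0.0301)). Rgs9bp, a photoreceptor gene on this list, had a log2 fold change of 1.78 and of -0.28 (adjusted p = 0.175) with the rod score. Its call was kept in only 4 of the 11 fits that leave out 1 library, and was lost without Old OSK replicate 4 (1.2, adjusted p = 0.209) among others.

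Of 15 genes for the uptake of outer segments, 5 were lower and 5 higher (21.4% and 25.1% of all genes), or 3 higher without Old OSK replicate 4. Mertk, the receptor tyrosine kinase that starts engulfment, had 179 to 287 CPM (median 205) in Young and 87.2, 58.7, 82.1 and 88.9 CPM in Old OSK (log2 fold change -1.44 ± 0.28 SE, edgeR adjusted p = 0.000951). Itgav, part of the binding integrin, had 642 to 1160 CPM (median 867) and 371, 295, 422 and 317 CPM (log2 fold change -1.4 ± 0.26 SE, edgeR adjusted p = 0.00067). Mfge8, the bridge between integrin and outer segment, was higher, with 54 to 77.5 CPM (median 63.9) and 161, 153, 176 and 201 CPM (log2 fold change 1.4 ± 0.18 SE, edgeR adjusted p = 5.44e-05). None of these 3 overlapped between the groups. Mfge8 was a call with the surface score (1.15 (adjusted p = 0.016)) and no member was called with both.

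The strongest lower genes were of other kinds. By the same rule as above they included Nyap2, Manea, Ppp1r9a, Ggt1, Napepld, 1110002E22Rik, Slmap, Zdhhc2 and Dab1. Nyap2, an adaptor of neuronal phosphoinositide 3-kinase signalling, had 52 to 74.3 CPM (median 60.6) in Young and 12.5, 11.6, 15.8 and 15.1 CPM in Old OSK, with a wide gap between the groups (log2 fold change -2.15 ± 0.18 SE, edgeR adjusted p = 1.27e-06). Old libraries had 38 to 48.3 CPM of it and Old control 26.6 to 58.1, all above the Old OSK values. Ggt1, the gamma-glutamyl transferase that breaks down glutathione outside the cell, had 118 to 160 CPM (median 140) in Young and 26.1, 22.2, 32.6 and 22.9 CPM in Old OSK (log2 fold change -2.4 ± 0.22 SE, edgeR adjusted p = 2.72e-06), and 26.3 to 56.9 CPM in Old. Manea, a mannosidase of the Golgi, had 43.5 to 52.5 CPM (median 48.3) and 25.3, 26.1, 24.4 and 23.8 CPM, a small but even change (log2 fold change -0.94 ± 0.083 SE, edgeR adjusted p = 1.99e-06). These 3 kept a call with both scores, at -1.68 (adjusted p = 0.00216), -1.53 (adjusted p = 0.00309) and -0.66 (adjusted p = 0.00957). Of the largest changes, Grik1, a glutamate receptor subunit, had 51.7 to 103 CPM (median 58.6) in Young and 9.97, 9.6, 12.6 and 21.3 CPM in Old OSK (log2 fold change -2.27 ± 0.26 SE, edgeR adjusted p = 2.02e-05), and Trhde, a peptidase that degrades thyrotropin-releasing hormone, had 73.3 to 121 CPM (median 89.6) and 23.9, 11, 23.1 and 14.9 CPM (log2 fold change -2.37 ± 0.33 SE, edgeR adjusted p = 8.05e-05).

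By the rule on level and overlap, the largest increases were in Lypd2 and Nmu, before the vector genes Sox2 and Klf4, and Pou5f1, whose mean level is under that limit, had a log2 fold change of 6.88. Lypd2, one of the 20 surface markers, had 0.337 to 12.5 CPM (median 1.85) in Young and 796, 405, 187 and 18.7 CPM in Old OSK (log2 fold change 6.53 ± 1.4 SE, edgeR adjusted p = 0.00148), and 0.95 (adjusted p = 0.642) with the surface score, of which it is part. Nmu, the neuropeptide neuromedin U, had 0.281 to 6.2 CPM (median 1.75) in Young and 76.2, 199, 113 and 93.1 CPM in Old OSK (log2 fold change 5.69 ± 0.85 SE, edgeR adjusted p = 0.000139). It was 0.888 to 3.47 CPM in Old and reached 112 CPM in 1 Old control library, and its log2 fold change was 4.47 (adjusted p = 0.0204) with the surface score and 5.73 (adjusted p = 0.0609) with both.

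Tight junction and keratin genes were mostly higher. The list shares Krt5 and Krt14 with the 20 surface markers, so the fit with that score is not independent of it. Of 23, 13 were higher and 4 lower, with a median of 1.422, which was -0.166 with the surface score held. Krt14, a keratin of basal cells, had 13.4 to 282 CPM (median 46) in Young and 1090, 1140, 1490 and 241 CPM in Old OSK. Replicate 4 was within the Young range (log2 fold change 3.45 ± 0.79 SE, edgeR adjusted p = 0.00245), and the log2 fold change was 0.28 (adjusted p = 0.756) with the surface score. Cldn2, a claudin that lets cations pass, was lower, with 142 to 216 CPM (median 164) and 68.2, 62.7, 91.5 and 57.6 CPM (log2 fold change -1.32 ± 0.16 SE, edgeR adjusted p = 3.78e-05), and remained a call (-1.22 (adjusted p = 0.00834)). Cldn1, another claudin, had 375 to 650 CPM (median 540) and 207, 138, 207 and 208 CPM (log2 fold change -1.46 ± 0.25 SE, edgeR adjusted p = 0.000394), and -0.89 (adjusted p = 0.104) with the score. Without Old OSK replicate 2, the list had 2 lower members.

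**Figure D5:**
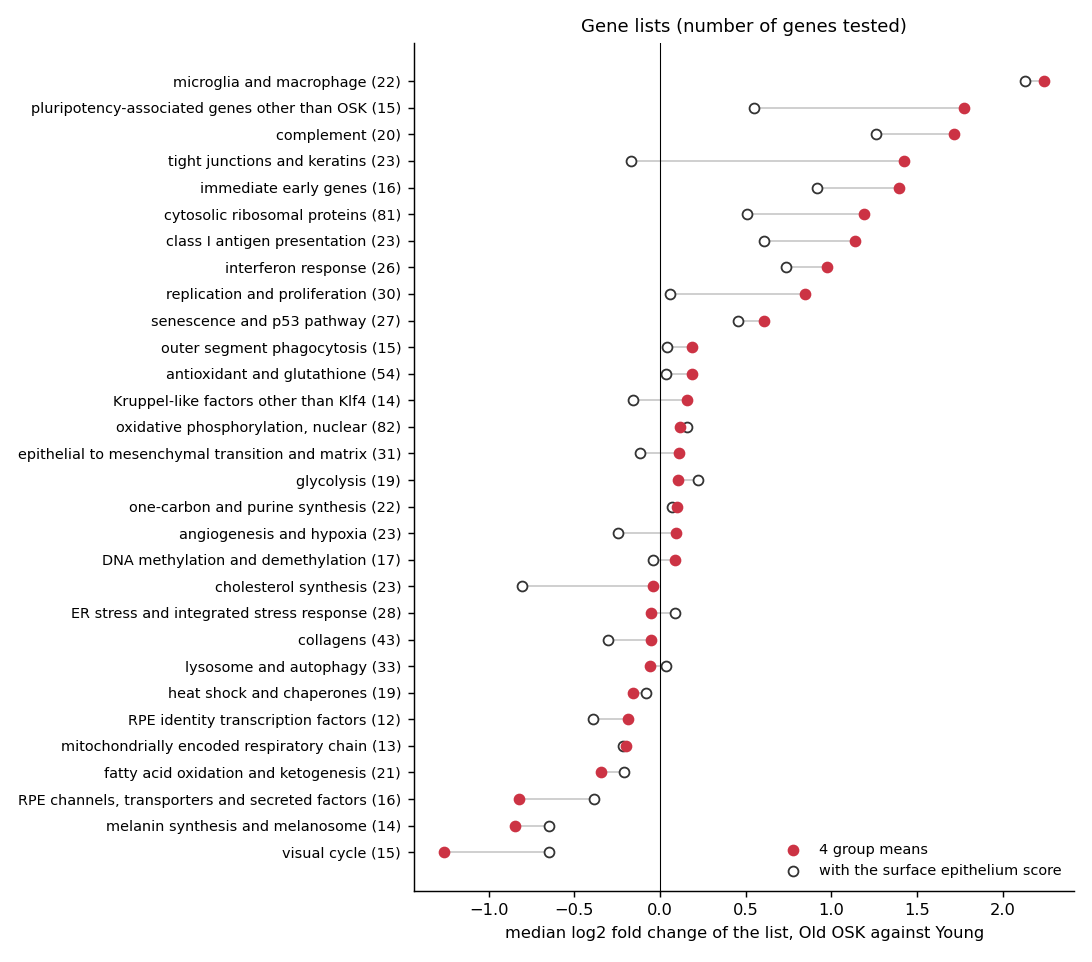
Median log2 fold change of Old OSK against Young for each of the 30 gene lists, with the number of genes tested in brackets, in the fit with group means (filled) and with the surface epithelium score held (open). The microglia and macrophage list stays at 2.133 and the tight junction and keratin list goes from 1.422 to -0.166.

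Nearly all cytosolic ribosomal protein genes were higher. Of 81 tested, 77 were higher and none lower (25.1% and 21.4% of all genes), with a median of 1.193. In 75 all 4 Old OSK libraries were above Young (12.6% of all genes). In Old against Young 43 were higher and none lower (5.4% and 4.16% of all genes), and Old control against Young called 2 (6.62%). Rps15, of the small subunit, had 126 to 154 CPM (median 143) in Young and 437, 301, 293 and 253 CPM in Old OSK (log2 fold change 1.19 ± 0.15 SE, edgeR adjusted p = 3.81e-05). Rps28 had 26.7 to 46.9 CPM (median 29.8) and 157, 88.2, 89.8 and 82 CPM (log2 fold change 1.6 ± 0.2 SE, edgeR adjusted p = 4.56e-05). Old OSK replicate 1 was the highest library for both. Under the surface score 15 members were called and the median was 0.508, and with both scores none was called and the median was 0.407. These genes are short, and log2 CPM related to the length of a gene's merged exons differently between libraries. The slope of log2 CPM per factor of 10 in this length was 0.05 to 0.405 in Young and -0.588, -0.166, -0.209 and -0.137 in Old OSK. The median log2 fold change was 0.114 in the shortest of 5 length classes of genes and -0.195 in the longest. With a length-dependent offset in each library 75 ribosomal protein genes were called higher, with a median of 0.825. What the difference in slope comes from was not tested.

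Nuclear genes of oxidative phosphorylation gave 20 higher and 5 lower of 82, with a median of 0.115, and the higher share was near the 25.1% of all genes. The surface score left 1 lower call and both scores none. The higher count was 8 without Old OSK replicate 1 and 13 without Young replicate 5 or Old OSK replicate 4, and the lower count was 2 without Old OSK replicate 2 and 8 without replicate 4. With the length offsets the count was 3 higher and 34 lower, with a median of -0.21, so the direction of this list turned with the offsets. Cox7a1, a subunit of cytochrome oxidase, had 2.81 to 6.36 CPM (median 4.22) in Young and 13.8, 10, 8.85 and 12.1 CPM in Old OSK (log2 fold change 1.28 ± 0.21 SE, edgeR adjusted p = 0.000325). Ndufs1, the largest subunit of complex I, had 100 to 129 CPM (median 122) and 91.1, 94.2, 93.4 and 96.2 CPM (log2 fold change -0.35 ± 0.07 SE, edgeR adjusted p = 0.000986). Of the 13 mitochondrially encoded genes, 4 were lower and none higher. All 4 encode complex I subunits, and mt-Nd5 had 8380 to 10700 CPM (median 9630) in Young and 5290, 5720, 6060 and 5610 CPM in Old OSK (log2 fold change -0.74 ± 0.14 SE, edgeR adjusted p = 0.000863). None of the 13 was called with the surface score, and 7 were lower with the length offsets.

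Fatty acid oxidation genes were mostly lower, 14 of 21 with 1 higher, with a median of -0.343, and 7 were lower without Old OSK replicate 2. Ppargc1a, a coactivator of mitochondrial genes, had 69.7 to 84 CPM (median 71.6) in Young and 37.4, 41.4, 39.7 and 43.9 CPM in Old OSK, without overlap (log2 fold change -0.88 ± 0.12 SE, edgeR adjusted p = 5.9e-05), and -0.6 (adjusted p = 0.0218) with the surface score. Cpt1a, which carries long-chain fatty acids into mitochondria, had 322 to 413 CPM (median 356) and 208, 187, 227 and 251 CPM (log2 fold change -0.72 ± 0.13 SE, edgeR adjusted p = 0.000411). In glycolysis 5 of 19 were higher and 1 lower, near the background of 25.1% for the higher genes, and 3 were higher without Young replicate 5 or Old OSK replicate 2 or 4, the last of which gave 4 lower. Ldha, lactate dehydrogenase, had 181 to 243 CPM (median 219) in Young and 516, 590, 468 and 496 CPM in Old OSK (log2 fold change 1.25 ± 0.25 SE, edgeR adjusted p = 0.00101), and Old control replicate 2, rich in rods, reached 741 CPM. No glycolysis gene was called with the surface score or both scores, and 1 was higher and 1 lower with the rod score.

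Of 23 genes of cholesterol synthesis, 2 were higher and 3 lower, against 1 and 7 without Old OSK replicate 1, and 6 were higher without replicate 4. With the surface score held none was higher and 9 were lower, with a median of -0.803. Msmo1, a sterol methyl oxidase, had 115 to 197 CPM (median 160) in Young and 128, 104, 81.5 and 67.6 CPM in Old OSK (log2 fold change -0.74 ± 0.18 SE, edgeR adjusted p = 0.00355). Replicate 1 was inside the Young range, and with the score the log2 fold change was -1.2 (adjusted p = 0.00725). Fdft1, squalene synthase, had 156 to 233 CPM (median 181) and 133, 107, 86.4 and 80.1 CPM (log2 fold change -0.85 ± 0.14 SE, edgeR adjusted p = 0.000269).

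Antioxidant and glutathione genes split, with 20 higher and 10 lower of 54 (25.1% and 21.4% of all genes) and a median of 0.185. Prdx1, a peroxiredoxin that reduces hydrogen peroxide, had 275 to 358 CPM (median 314) in Young and 516, 554, 494 and 397 CPM in Old OSK, without overlap. Its log2 fold change was 0.64 ± 0.1 (SE, edgeR adjusted p = 0.000249), and Old libraries had 305 to 322 CPM. It remained a call with both scores (0.81 (adjusted p = 0.035)). Txn1, thioredoxin, had 35.1 to 56.9 CPM (median 44.2) and 162, 126, 116 and 74.3 CPM (log2 fold change 1.36 ± 0.21 SE, edgeR adjusted p = 0.00018), and 0.55 (adjusted p = 0.101) with the surface score. Both subunits of the enzyme that starts glutathione synthesis were lower. Gclc, the catalytic one, had 73.4 to 90 CPM (median 75.6) in Young and 50.3, 44, 46.5 and 53.3 CPM in Old OSK (log2 fold change -0.71 ± 0.096 SE, edgeR adjusted p = 7.11e-05), and Gclm, the modifier, had 105 to 150 CPM (median 117) and 85.3, 67.9, 74.6 and 70 CPM (log2 fold change -0.73 ± 0.11 SE, edgeR adjusted p = 0.000124). Both were calls with the surface score, and 5 members were higher and 3 lower there. With the length offsets 15 members of the list were higher and 17 lower, with a median of 0.09, so its balance turned.

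Genes of the p53 pathway and senescence were more often higher, 17 of 27 with 3 lower, at a median of 0.607. Cdkn1a, the p21 inhibitor of the cell cycle, had 5.4 to 27.1 CPM (median 8.75) in Young and 110, 127, 116 and 64.9 CPM in Old OSK. No Old OSK library overlapped Young, and Old replicate 4 had 64.4 CPM. Its log2 fold change was 3.21 ± 0.44 (SE, edgeR adjusted p = 7.5e-05), and it remained a call with the surface score (1.58 (adjusted p = 0.00334)) and with both (1.63 (adjusted p = 0.0234)). Phlda3, a p53 target that restrains Akt, had 18.9 to 31.3 CPM (median 24.6) in Young and 126, 125, 131 and 63.5 CPM in Old OSK (log2 fold change 2.23 ± 0.28 SE, edgeR adjusted p = 3.47e-05). Cdkn2a, which encodes p16 and p19Arf, changed by 3.45 and Cdkn2b by 2.8 on the log2 scale, and with the surface score they had 2.1 (adjusted p = 0.298) and 0.2 (adjusted p = 0.811). The lower members were Glb1, Igfbp5 and Zmat3. Igfbp5 kept its call in 3 and Zmat3 in 4 of the 11 fits that leave out 1 library, and only Glb1 was left without any 1 of Young replicates 2, 3 and 6 and Old OSK replicate 2. The surface score left 6 members higher and both scores 2.

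Replication and proliferation genes gave 21 higher and 3 lower of 30, with a median of 0.849, which was 0.059 with the surface score. Mki67, which marks dividing cells, had 3.37 to 12.3 CPM (median 5.79) in Young and 31.5, 26.2, 30.7 and 10.6 CPM in Old OSK. Replicate 4 was inside the Young range (log2 fold change 1.87 ± 0.42 SE, edgeR adjusted p = 0.00241), and with the score the log2 fold change was 0.13 (adjusted p = 0.868). Cdk2 was lower, with 32.5 to 49.9 CPM (median 39.9) and 17.4, 21.6, 26.1 and 15.2 CPM (log2 fold change -0.99 ± 0.17 SE, edgeR adjusted p = 0.000412), and remained a call with both scores (-1.1 (adjusted p = 0.032)). In purine and one-carbon synthesis 7 of 22 were higher and 5 lower, near the shares of all genes. Paics, an enzyme of purine synthesis, had 182 to 210 CPM (median 194) in Young and 266, 336, 300 and 251 CPM in Old OSK (log2 fold change 0.56 ± 0.074 SE, edgeR adjusted p = 5.9e-05). Old libraries had 170 to 184 CPM and Old control libraries 166 to 174 CPM, so Old control was below the Young range and Old OSK above it. Paics remained a call with both scores (0.55 (adjusted p = 0.0461)).

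Immediate early genes, which respond within minutes to stimulation or handling of tissue, were higher for 14 of 16, none lower, with a median of 1.397. Atf3, a stress-induced factor, had 0.347 to 3.83 CPM (median 1.5) in Young and 7.84, 9.94, 11.4 and 17.4 CPM in Old OSK (log2 fold change 2.82 ± 0.47 SE, edgeR adjusted p = 0.000304), and Junb had 11.1 to 32 CPM (median 14.9) and 134, 95, 106 and 52.1 CPM (log2 fold change 2.52 ± 0.43 SE, edgeR adjusted p = 0.000349). Egr1 (-0.48) and Egr2 (1.16) were not called. Each was called higher without 1 Young library, Egr1 without replicate 7 (1.47, adjusted p = 0.0118) and Egr2 without replicate 3 (1.45, adjusted p = 0.0334). The surface score left 3 calls and both scores none. Heat shock genes gave 6 higher and 6 lower of 19 (25.1% and 21.4% of all genes). Hspb1, a small heat shock protein, had 18.5 to 48.3 CPM (median 24) in Young and 299, 180, 157 and 61.1 CPM in Old OSK (log2 fold change 2.74 ± 0.45 SE, edgeR adjusted p = 0.000278), and 0.79 (adjusted p = 0.12) with the surface score, with which no member was called. Of 28 genes of endoplasmic reticulum stress, 7 were higher and 7 lower, near the shares of all genes, with 4 higher without Old OSK replicate 1 or 4.

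Matrix genes changed in both directions, at shares near those of all genes (25.1% higher and 21.4% lower). Of 43 collagen genes, 8 were higher and 12 lower, which became 2 and 2 with the surface score and 1 and 1 with both. Col11a2, a chain of fibrillar collagen XI, had 3.42 to 8.83 CPM (median 4.8) in Young and 34.4, 75.7, 87.7 and 42.9 CPM in Old OSK. The lowest Old OSK library was more than 3 times the highest Young library, and neither the Old (2.92 to 8.51 CPM) nor the Old control libraries (7.64 to 8.48) exceeded Young. Its log2 fold change was 3.41 ± 0.31 (SE, edgeR adjusted p = 2.35e-06), and 3.29 (adjusted p = 0.00887) with both scores. Col4a3, a chain of basement membrane collagen as found in Bruch's membrane, had 247 to 326 CPM (median 277) in Young and 57.7, 78.4, 107 and 90.1 CPM in Old OSK (log2 fold change -1.74 ± 0.25 SE, edgeR adjusted p = 0.000106). Among 31 genes of mesenchymal transition and matrix, 9 were higher and 7 lower, which became 2 and 1 with the surface score and none with both. Timp3, an inhibitor of matrix proteases that RPE deposits in Bruch's membrane, had 3310 to 4510 CPM (median 3950) and 1370, 746, 1320 and 1260 CPM (log2 fold change -1.76 ± 0.3 SE, edgeR adjusted p = 4e-04), and -1.18 (adjusted p = 0.0795) with the surface score. Sparc, a collagen-binding matrix protein, had 763 to 1050 CPM (median 952) and 357, 405, 438 and 465 CPM (log2 fold change -1.15 ± 0.14 SE, edgeR adjusted p = 3.1e-05). Tgfb1, transforming growth factor beta 1, was higher, with 4.6 to 7.72 CPM (median 5.56) and 13.7, 12.3, 15.8 and 15.1 CPM (log2 fold change 1.27 ± 0.15 SE, edgeR adjusted p = 1.91e-05). None of these 5 genes overlapped between the groups.

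Angiogenesis and hypoxia genes gave 5 higher and 10 lower of 23, with 2 higher without Old OSK replicate 2 and 3 without replicate 3 or 4. Vegfa, the growth factor by which RPE maintains the choroidal capillaries, had 491 to 703 CPM (median 559) in Young and 191, 130, 243 and 211 CPM in Old OSK. All 4 libraries were below the Young range (log2 fold change -1.55 ± 0.27 SE, edgeR adjusted p = 0.000394), and with the surface score the log2 fold change was -1.07 (adjusted p = 0.0769). No member of the list was called with the surface score or both scores, and 2 were higher and 8 lower with the rod score. Lysosome and autophagy genes gave 4 higher and 9 lower of 33 (25.1% and 21.4% of all genes), with 2 higher without Old OSK replicate 1. No member was called with the surface score.

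Among enzymes of DNA methylation, 5 of 17 were higher and 4 lower, near the 25.1% and 21.4% of all genes, with 3 lower under the surface score. Dnmt3a, which sets new methylation, had 75.5 to 93.1 CPM (median 86.6) in Young and 41.9, 50.5, 49.4 and 58.5 CPM in Old OSK (log2 fold change -0.79 ± 0.11 SE, edgeR adjusted p = 7.81e-05), and remained a call with both scores (-0.73 (adjusted p = 0.0461)). Tet1, which oxidises methylcytosine, had 5.96 to 12.4 CPM (median 9.05) and 3.34, 5.03, 5.46 and 5.58 CPM (log2 fold change -0.95 ± 0.19 SE, edgeR adjusted p = 0.00119). Both were below the Young range in all 4 libraries. Of 14 Kruppel-like factors other than Klf4, 5 were higher and 3 lower (25.1% and 21.4% of all genes), and none was called with the surface score.

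Only 3 genes were called in Old against Young and, in the opposite direction, in Old OSK against Old control. The values of 2 of them against Young show where they ended. Ctsk, cathepsin K, a protease that degrades collagen, had 22.3 to 30.4 CPM (median 26.4) in Young, 12.2 to 22.3 CPM in Old and 32.1, 51.9, 40.7 and 35 CPM in Old OSK. The Old OSK libraries were above every Young library (log2 fold change 0.61 ± 0.15 SE, edgeR adjusted p = 0.00416), and with the surface score the log2 fold change was 0.76 (adjusted p = 0.058). Ano5, a membrane protein of the anoctamin family, had 4.04 to 8.71 CPM (median 6.77) in Young, 10.2 to 15.3 CPM in Old and 4.41, 4.41, 6.28 and 4.87 CPM in Old OSK. The Old OSK libraries were inside the Young range, and the difference was not called (log2 fold change -0.44 ± 0.21 SE, edgeR adjusted p = 0.103), though it was without Young replicate 4 (-0.54, adjusted p = 0.0355). The comparisons that chose these genes share the Old OSK or the Young libraries with the values given here.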

How the data were processed

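RNA of 18 mouse RPE samples was made into cDNA with a kit for very low input, amplified and fragmented by transposase, per the labels' protocols. The authors deposited 1 table of raw read counts per gene, not normalized, per the file headers and the whole-number values. STAR 2.7.1a and featureCounts 1.6.2 and the builds GRCm38/mm10 and GRCh38/hg38 are listed, per the submitters' processing notes. The annotation and the strand setting are not given in the sources used here, and the cDNA kit does not mark strand, so overlapping genes cannot be told apart.

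The table has 21859 rows, of which 1096 are at 0 in every library, 50 share a symbol and 21462 have a symbol in a reference list of mouse gene names. Genes were kept with edgeR's filterByExpr (minimum count 10, minimum total 15), scaled by TMM and fitted with edgeR's quasi-likelihood test (edgeR 4.0.16, R 4.3.3) with group means over all 18 libraries, and p-values were adjusted over all 15944 genes. Distances used log2 CPM with a prior count of 2. Covariate scores, length-dependent offsets, DESeq2 1.42.0 and the other alternatives of the closing section changed 1 choice at a time, apart from the following. The length offsets used the merged GENCODE exons of each gene (15755 genes, 98.8%) and left the other genes out. Both scores were also held together. The replicate block kept only the equally numbered libraries, which were fitted without pairing as well. The surface epithelium list, the length offsets, the fits of equally numbered libraries without pairing, the paired distances and those without Old replicate 4 and Old control replicate 2 were chosen after the data had been seen. Tests on simulated counts with 15720 genes for Old OSK against Young recovered 50% of 100 changes of 2-fold and 72% of 100 changes of 4-fold. No other gene was changed there, while 46.4% of genes were called in the data. The adjusted p threshold is stricter with so few changed genes, so these shares do not measure recovery in the comparison itself.

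The lists and the comparison were chosen with earlier results of these data known. Genes with values by library were named by a rule. It took the vector genes and Gsta4, the 10 lowest p-values and the 5 largest changes in each direction among called genes that have a mean log2 CPM of at least 3 and groups that do not overlap, up to 3 called members of each list in each direction by p, and the genes called in Old against Young and oppositely in Old OSK against Old control. Some genes of the rule are not reported here, and genes given by a log2 fold change alone, the marker genes and the uncalled members were picked after their values were seen.

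Replicates of a group correlated at 0.9357 to 0.9826 (Pearson r of log2 CPM) and no pair agreed within sampling noise. Deviations from the group mean in same-numbered libraries of Old OSK and Old control had r = 0.103, 0.421 and 0.339 for numbers 1 to 3. Old OSK replicate 1 was closest to Old control replicate 3, so only numbers 2 and 3 matched best. For Old OSK and Young, r was 0.021, 0.154, 0.091 and 0.352 for numbers 1 to 4, and only number 4 matched best. No label states a pairing, so the numbers are not known to pair libraries. Results within equal numbers are given as an alternative only.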

Additional observations from a re-analysis of the deposited data

Results flagged for a closer look

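In 24 of the 249 sets of values examined (9.64%), made of the genes described above and the distances in the groups of 4 to 7 libraries, the highest or lowest library stood apart from the rest by Dixon's test at the 95% level, which was taken on the log2 CPM scale for genes. Chance alone gives about 1 in 20.

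In Young, replicate 3 stood apart in Cd68 (10.8 CPM), Gsta4 (679 CPM), Hspb1 (48.3 CPM), Pou5f1 (3.75 CPM) and Fgf4 (0.285 CPM). Replicate 7 stood apart in Egr1 (262 CPM), Grik1 (103 CPM), Napepld (27.7 CPM) and Ndufs1 (100 CPM), and replicate 4 in Ano5 (4.04 CPM).

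In Old OSK, replicate 4 stood apart in the keratins Krt5 (1250 CPM) and Krt14 (241 CPM), in the proliferation marker Mki67 (10.6 CPM), in Phlda3 (63.5 CPM) and in Igfbp5 (887 CPM). Its surface epithelium markers were also the lowest of the 4. Replicate 2, the library with the lowest sum of RPE markers, stood apart in C3 (110 CPM), Cldn1 (138 CPM), Csf1r (136 CPM), Slc4a2 (257 CPM) and Timp3 (746 CPM). Replicate 1 stood apart in Dab1 (11.1 CPM), Irf7 (52.3 CPM) and Rps28 (157 CPM), and replicate 3 in Ifit1 (44.6 CPM).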

How the results depend on the processing

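The counts of Old OSK against Young, 3996 higher and 3405 lower, moved by over 1.5 times only under the covariate fits, to 2429 and 2029 with the rod score, 531 and 509 with the surface score and 161 and 82 with both. Over the fits that leave out 1 library they were 3243 to 3975 and 2649 to 3447. With the replicate number as a block they were 2957 and 2848, and none of the 5477 genes called in both fits changed direction. No label states that the numbers pair these libraries.

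The counts beside it were less stable. Without the libraries with M, Old control keeps replicate 1 alone. In that setting the counts that involve Old control rest on this unreplicated library, and no conclusion is drawn from them. Old OSK against Old control (116 calls) gave 58 with M as a covariate, 31 with the surface score, 35 with both scores, 1347 without the libraries with M, 1640 with DESeq2, 2 in a fit of the compared groups alone, 461 with the replicate block, 990 in the same libraries without pairing, 3729 without Old replicate 4 and Old control replicate 2, and 13 to 2881 leaving out 1 library. In the same order of settings, Old control against Young (1056) gave 510 with M, 168 with the rod score, 299 with both scores, 164 without M, 1717 with DESeq2, 299 in the compared groups alone, 0 with the block (1570 genes at an unadjusted p under 0.05 in edgeR), 16 without pairing, 280 without those libraries and 241 to 1495 leaving out 1. Old against Young (1524) gave 600 with M, 481, 397 and 193 with the rod, surface and both scores, 445 without M, 2452 with DESeq2, 0 with the block (2269 genes at an unadjusted p under 0.05 in edgeR), 191 without pairing, 622 without those libraries and 393 to 2140 leaving out 1.

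The distance of Old OSK beyond Young ranged from 0.4791 to 0.584 leaving out 1 library and was 0.4565 without M (adjusted exact p = 0.0857), that beyond Old from 0.2488 to 0.388 and that beyond Old control from 0.2053 to 0.4863. The position beyond Old control ranged from 0.4143 to 0.8351.

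Of the 120 genes described, 70 kept direction and call (or lack of one) with the surface score, 45 lost the call and 5 turned. With both scores 41 kept both, 69 lost the call and 10 turned. The genes that turned in any setting are given by log2 fold change. With the surface score these were Cd163 (-0.049), Egr1 (1.764), Krt12 (-0.029), Krt5 (-0.238) and Trim25 (-0.114). Krt12 and Krt5 are part of that score, so their values with it are not independent of it. With both they were Ano5 (0.069), Cd163 (-0.352), Crx (-0.2), Egr1 (0.707), Glb1 (0.157), Isg15 (-0.065), Krt12 (-1.318), Mrc1 (-0.005), Rbp3 (-0.294) and Rgs9bp (-0.322), and with the rod score Crx (-0.208), Rbp3 (-0.419) and Rgs9bp (-0.28). Without the libraries with M, with the block and in the same libraries without pairing, Cd163 had -0.136, -0.027 and -0.155, Ifit2 -0.008, -0.009 and -0.01, and Egr1 1.426, 1.272 and 1.265. Egr1 also had 0.69 with M as a covariate, 1.331 with DESeq2 and, leaving out 1 library, -0.719 to 1.474, the highest without Young replicate 7. Such ranges were -0.012 to 0.144 for Ifit2, the lowest without the same library, and -0.017 to 0.063 for Gbp7, the lowest without Old OSK replicate 4. The causes of these changes were not tested. The interaction of the comparison with M gave 0 calls in edgeR, with 1203 genes at an unadjusted p under 0.05.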
